A study of Mus musculus with 6 samples.

Results

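The 9 genes described here encode the molecules by which lymphocytes are caught on the walls of lymph node vessels: the secreted mucin-like glycoprotein Glycam1, the sulfotransferase Chst4, the fucosyltransferase Fut7, the addressin Madcam1, the selectins Sele and Selp, the integrin ligands Vcam1 and Icam1, and the chemokine-binding receptor Ackr1. They were chosen by symbol, for their function, and all 9 were found among the 54752 genes of the feature list. The values are unique molecular identifiers (UMIs, 1 per captured RNA molecule) from lymph nodes of the groin and armpit (inguinal and axillary) of C57Bl/6 animals, dissociated with collagenase. 3 libraries were used: nodes draining YUMMER1.7 melanoma, nodes draining YUMM1.7 melanoma, and nodes of naive mice without a tumour. YUMMER1.7 is an ultraviolet-mutagenised derivative of the mouse melanoma line YUMM1.7 and is known to be more immunogenic. All 3 libraries were depleted of CD45-bearing cells, although the label and the protocol word the use of the CD45 beads differently. Each group was 1 library made from pooled nodes, so the differences below could not be checked in replicates, and every interval covers counting error only. Age, sex and time after tumour injection were not given in the labels.

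In lymph nodes, naive lymphocytes leave the blood through high endothelial venules, whose tall endothelial cells carry sulfated and fucosylated sugars called peripheral node addressin. Lymphocytes roll on these sugars, chemokines held on the vessel surface activate their integrins, and Icam1, Vcam1 or Madcam1 then arrest them. Glycam1, which is secreted, and membrane mucins such as Cd34 and Podxl carry the sugars, while Fut7 and Chst4 add the fucose and the sulfate. Sele and Selp capture leukocytes on inflamed vessels, Ackr1 marks venular endothelium, Vcam1 is also a marker of fibroblastic reticular cells, and Madcam1 is also known from the lymphatic endothelium that floors the subcapsular sinus.

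The promoters of Glycam1, Chst4 and Madcam1 are shown because these 3 genes were distributed over the vessel and stromal cells in different ways, as described below. Each runs 5′ to 3′ on the strand of its gene, from 250 bases before to 50 bases after the start of the RefSeq gene, in GRCm38.p6. Capitals mark matches on either strand to an NF-kB-like motif (GGG, 3 bases of any kind, TTCC), to TATAAA or to AGGTCA, with no overlap between matches.
Glycam1, chr15:103565032-103565331, minus strand: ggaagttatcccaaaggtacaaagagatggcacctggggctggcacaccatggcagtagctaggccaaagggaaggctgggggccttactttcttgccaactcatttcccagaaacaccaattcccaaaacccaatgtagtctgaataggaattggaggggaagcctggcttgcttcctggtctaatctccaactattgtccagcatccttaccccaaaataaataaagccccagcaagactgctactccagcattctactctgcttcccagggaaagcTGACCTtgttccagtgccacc
Chst4, chr8:110039285-110039584, minus strand: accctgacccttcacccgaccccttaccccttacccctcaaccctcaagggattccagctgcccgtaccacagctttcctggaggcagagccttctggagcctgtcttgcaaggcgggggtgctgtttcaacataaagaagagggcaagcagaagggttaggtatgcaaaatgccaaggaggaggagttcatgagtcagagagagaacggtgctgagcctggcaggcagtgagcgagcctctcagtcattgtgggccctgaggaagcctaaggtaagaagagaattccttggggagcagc
Madcam1, chr10:79664309-79664608, plus strand: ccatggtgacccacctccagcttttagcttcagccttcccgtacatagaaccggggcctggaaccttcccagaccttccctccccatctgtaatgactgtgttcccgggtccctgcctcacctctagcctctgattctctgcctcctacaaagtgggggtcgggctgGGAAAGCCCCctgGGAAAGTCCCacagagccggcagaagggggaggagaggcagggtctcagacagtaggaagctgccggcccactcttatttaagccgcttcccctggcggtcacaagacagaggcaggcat
Of the 9 genes, 8 had a promoter entry, and Vcam1 is named only. Madcam1 held 2 matches to the NF-kB-like motif, beginning at -83 and -70 from the start, and no other promoter of the 8 genes held one. The same motif stood in 5.56% of the 32851 promoters of this length. TATAAA, held by 13.6% of all promoters, was found in those of Sele and Icam1, and AGGTCA, held by 16.3%, in those of Glycam1, Selp and Ackr1. Chst4 and Fut7 held none of the 3 motifs. A match describes letters and does not show that a factor binds. Only exact matches were sought, so a promoter without one may still hold a near match or a site of other letters.

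The library totals lay between 67709285 and 78240566 UMIs, and 6540 YUMMER1.7, 8301 YUMM1.7 and 12356 naive cells were kept. B cells remained numerous, with 2533 cells in the YUMMER1.7 library, 4605 in the YUMM1.7 library and 8108 in the naive library. Blood endothelium held 262 YUMMER1.7 cells, 120 YUMM1.7 cells and 10 naive cells. Lymphatic endothelium held 218, 215 and 21 cells and fibroblastic cells 430, 274 and 8 in the same order of libraries, so naive values below rest on few cells. Of the markers of each class, 14 of 14 blood endothelial, 8 of 12 lymphatic endothelial and 13 of 13 fibroblastic ones had a UMI in 10% or more of their class in both tumour libraries. The unnamed cluster 21 held 1637 YUMMER1.7 cells and 138 YUMM1.7 cells with a median of 600 and 604 UMIs, and it was kept out of the classes. Cell barcodes shared between libraries numbered 12 for YUMMER1.7 and YUMM1.7, 32 for YUMMER1.7 and naive, and 35 for YUMM1.7 and naive.

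Levels are UMIs per 1000000 UMIs of the class (CPM), and were compared between classes and libraries for 1 gene at a time. Chst4, Fut7, Sele, Selp and Ackr1 were highest in blood endothelium, Vcam1 in lymphatic endothelium and fibroblastic cells, and Madcam1 in lymphatic endothelium. Glycam1 was high in both kinds of endothelium, and Icam1 was present in all 3 classes with its highest level in blood endothelium. This order was the same in the YUMMER1.7 and YUMM1.7 libraries. The 9 genes were left out of the genes used for clustering.

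**Figure D1:**
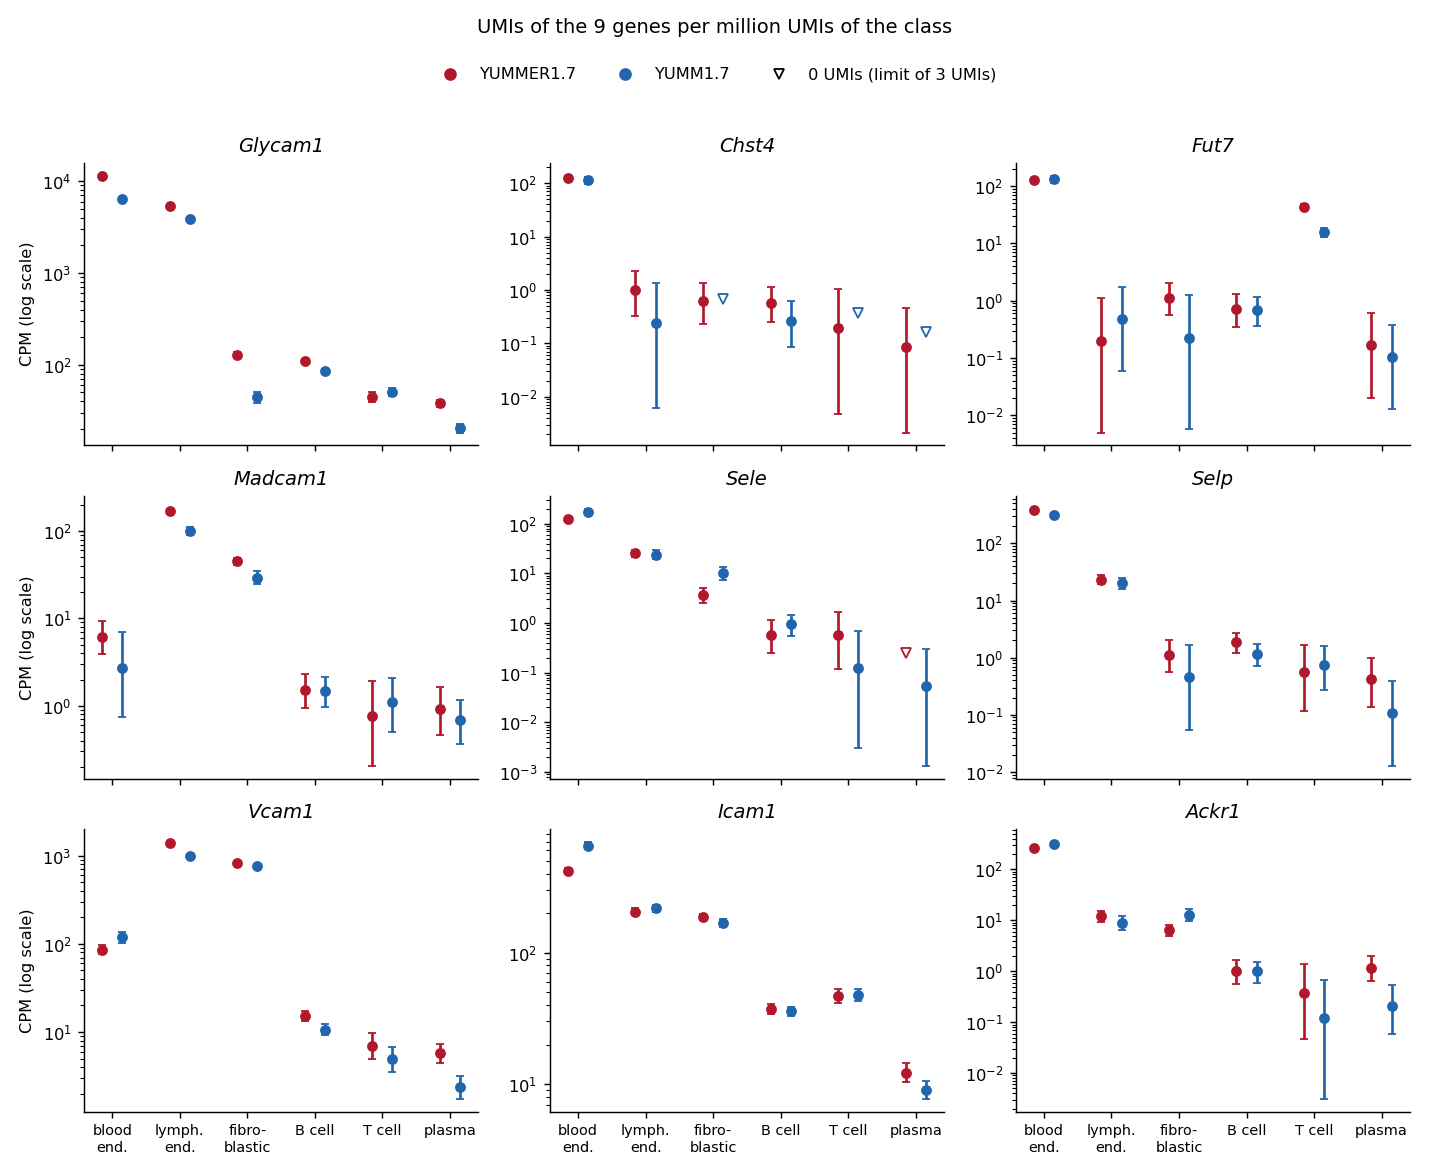
CPM of the class on a log axis for the 9 genes in blood endothelium, lymphatic endothelium, fibroblastic cells, B cells, T cells and plasma cells, with YUMMER1.7 left of YUMM1.7, bars for the exact 95% Poisson interval, and open triangles at the limit of 3 UMIs where none was counted. Chst4 stands at 126 and 115 CPM in YUMMER1.7 and YUMM1.7 blood endothelium, and Vcam1 at 1396 and 987 CPM in YUMMER1.7 and YUMM1.7 lymphatic endothelium.

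Glycam1 had 42029 UMIs in YUMMER1.7 blood endothelium and 9393 in YUMM1.7 blood endothelium, or 11334 and 6382 CPM, with 1088 CPM in the 10 naive cells. The log2 ratio of YUMMER1.7 over YUMM1.7 was 0.83 (95% interval 0.80 to 0.86). It kept its sign but stood under a fold of 1.5 without doublet removal, at 0.58, as a mean over cells, at 0.46, and on thinned cells, at 0.41. The share of blood endothelial cells with a Glycam1 UMI was 58.8% in YUMMER1.7 and 61.7% in YUMM1.7, so the level was higher in YUMMER1.7 while the share was not. After each cell was thinned to 2000 UMIs, the shares were 41.3% in YUMMER1.7 and 52.0% in YUMM1.7. In lymphatic endothelium Glycam1 had 26853 UMIs in YUMMER1.7 and 16107 in YUMM1.7, which gave 5319 CPM in YUMMER1.7, 3915 CPM in YUMM1.7 and 2600 CPM in 21 naive cells. The log2 ratio there was 0.44 (0.41 to 0.47), but it was -0.05 on thinned cells and -0.07 as a mean over cells, so its sign was not kept. Within lymphatic subclusters 2, 3 and 4 Glycam1 was lower in YUMMER1.7, with 249, 494 and 362 CPM against 876, 630 and 1108 CPM in YUMM1.7, and in subcluster 6 it was higher, with 10281 CPM against 6618 CPM.

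Because the RNA of Glycam1 is abundant, its UMIs were also counted in cells that should lack it. B cells held 110 CPM in YUMMER1.7, 85.3 CPM in YUMM1.7 and 1.85 CPM in naive nodes, and 40.8%, 28.3% and 0.703% of B cells had at least 1 UMI in the same order. T cells held 44.8 CPM in YUMMER1.7 and 50.6 CPM in YUMM1.7, and plasma cells 38.1 and 20.3 CPM. The unnamed cluster 21 stood higher in CPM, at 1537 in YUMMER1.7 and 584 in YUMM1.7, but its cells were shallow, so few UMIs make a high CPM. It held 1824 Glycam1 UMIs in 1637 YUMMER1.7 cells and 111 in 138 YUMM1.7 cells. B cells held 1519 in 2533 YUMMER1.7 cells and 1630 in 4605 YUMM1.7 cells. The B cell level was far below both endothelial levels in each library, and higher in the tumour libraries than in the naive one. Cells outside endothelium and fibroblastic cells held 6.21% of the Glycam1 UMIs of kept YUMMER1.7 cells and 10.3% of those of kept YUMM1.7 cells. Blood endothelium held 56.2% in YUMMER1.7 and 32.8% in YUMM1.7, and lymphatic endothelium 35.9% in YUMMER1.7 and 56.2% in YUMM1.7.

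In CPM, fibroblastic cells lay far below endothelium and near the B cell level. In UMIs, these deeper cells held 1253 in 430 YUMMER1.7 cells and 195 in 274 YUMM1.7 cells. Their Glycam1 level was 129 CPM in YUMMER1.7 (122 to 136) and 44.4 CPM in YUMM1.7 (38.4 to 51.0), against 110 and 85.3 CPM in B cells. A Glycam1 UMI was found in 58.8% of YUMMER1.7 and 33.2% of YUMM1.7 fibroblastic cells, at median depths of 21226 and 14688 UMIs, against 40.8% and 28.3% of B cells at 4825 and 3705 UMIs. On thinned cells 13.8% of YUMMER1.7 and 6.02% of YUMM1.7 fibroblastic cells had a Glycam1 UMI, against 21.1% of YUMMER1.7 and 15.7% of YUMM1.7 B cells. All 8 naive fibroblastic cells were at 0 UMIs. The fibroblastic log2 ratio was 1.54 (1.32 to 1.77). It was not of 1 sign within the class, since subclusters 1 and 4 had 196 and 261 CPM in YUMMER1.7 against 37.7 and 76.8 CPM in YUMM1.7, while subcluster 2, led by Gas6 and Cxcl12, had 40.8 CPM against 84.8 CPM. The part of free RNA in these values was not tested.

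**Figure D2:**
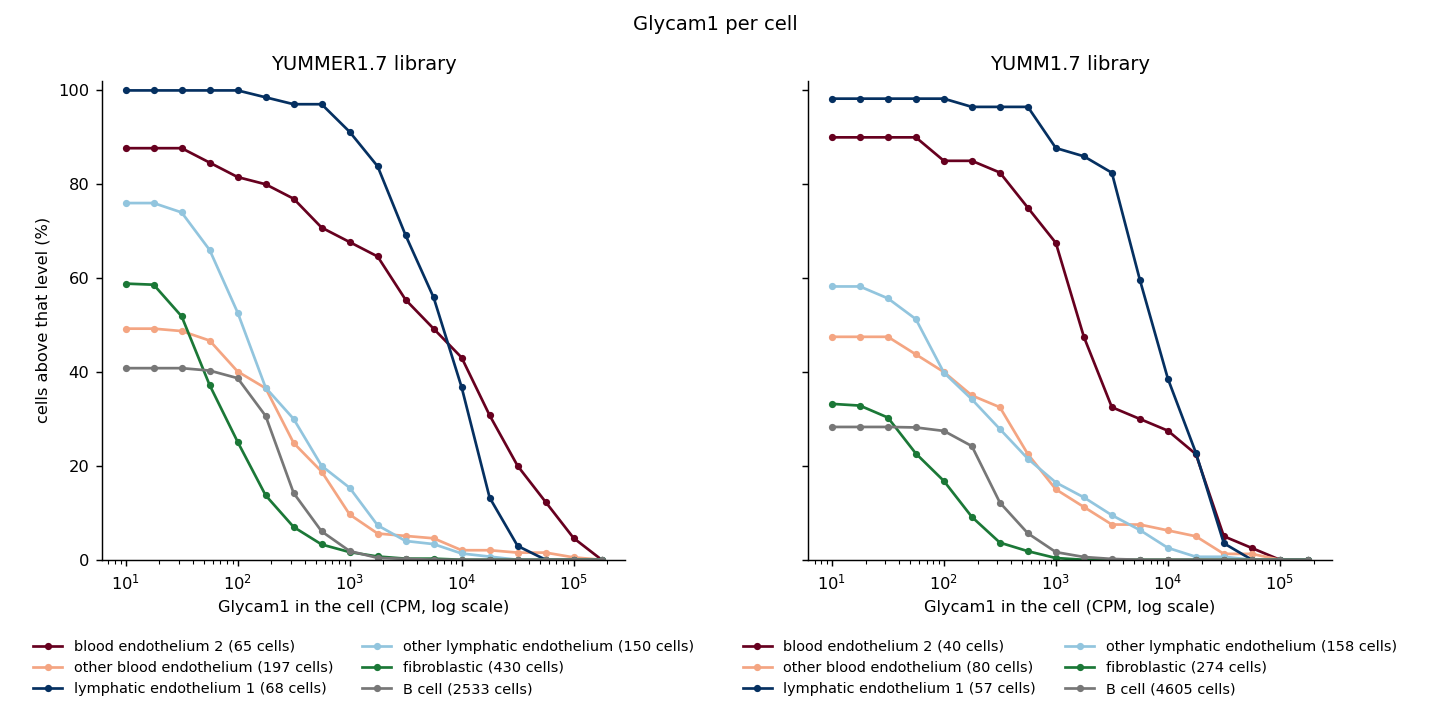
Share of cells (vertical axis, percent) whose own Glycam1 level lies above the level on the horizontal axis (CPM of the cell, log axis), with YUMMER1.7 left of YUMM1.7. The lines for blood endothelial subcluster 2 and lymphatic endothelial subcluster 1 stay high beyond the level where those of fibroblastic cells and B cells have come down. Above 10 times the B cell level, and with at least 3 UMIs, lay 43 of 65 YUMMER1.7 and 27 of 40 YUMM1.7 cells of the blood endothelial subcluster.

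A second measure was the number of Glycam1 UMIs for each UMI of Chst4. Blood endothelium held 90.0 Glycam1 UMIs per Chst4 UMI in YUMMER1.7 and 55.6 in YUMM1.7. B cells held 190 in YUMMER1.7 and 326 in YUMM1.7, from 8 and 5 Chst4 UMIs. Lymphatic endothelium held 26853 Glycam1 UMIs beside 5 of Chst4 in YUMMER1.7, and 16107 beside 1 in YUMM1.7. The ratio in lymphatic endothelium was not that of blood endothelium in either library, and the source of free RNA was not tested. Cells whose Glycam1 level exceeded 10 times that of B cells, with at least 3 UMIs, numbered 56 of 262 in YUMMER1.7 and 42 of 120 in YUMM1.7 blood endothelium. They numbered 84 of 218 and 80 of 215 in YUMMER1.7 and YUMM1.7 lymphatic endothelium, and 6 of 430 and 2 of 274 among fibroblastic cells. The same limit was passed by 20 of 2533 YUMMER1.7 B cells and 21 of 4605 YUMM1.7 B cells. Within 2-fold of the limit lay 17 and 19 blood endothelial cells and 32 and 24 lymphatic endothelial cells of the YUMMER1.7 and YUMM1.7 libraries, so the limit marks a range and not a cell type.

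Chst4, the sulfotransferase of high endothelial cells, had 467 UMIs in YUMMER1.7 and 169 in YUMM1.7 blood endothelium, or 126 CPM (115 to 138) and 115 CPM (98.2 to 134). The libraries did not differ beyond counting error, with a log2 ratio of 0.13 (-0.12 to 0.40). In YUMMER1.7 lymphatic endothelium Chst4 had 5 UMIs and in YUMM1.7 it had 1. Fibroblastic cells held 6 UMIs in YUMMER1.7 and 0 in YUMM1.7, which allows up to 3 counts. B cells held 0.578 CPM in YUMMER1.7 and 0.262 CPM in YUMM1.7, so that Chst4 in lymphatic endothelium and fibroblastic cells was near the level of B cells. The shallow unnamed cluster 21 had 8.42 CPM in YUMMER1.7, from 10 UMIs, and 0 UMIs in YUMM1.7. Fut7, which makes the fucosylated selectin ligands, had 127 CPM in YUMMER1.7 and 131 CPM in YUMM1.7 blood endothelium, with a log2 ratio of -0.05 (-0.29 to 0.20). It had 1 UMI in YUMMER1.7 and 2 UMIs in YUMM1.7 lymphatic endothelium. Fut7 was also found in T cells, at 43.1 CPM in YUMMER1.7 and 15.5 CPM in YUMM1.7, a log2 ratio of 1.47 (1.15 to 1.80), while B cells had 0.723 and 0.681 CPM. The T cell cluster with Icos and Gzmb among its leading genes held 130 of 315 YUMMER1.7 and 91 of 1081 YUMM1.7 T cells. The part of this mixture in the T cell ratio was not tested.

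Madcam1, the ligand of the gut-homing integrin α4β7, was rare in blood endothelium, with 23 UMIs in 7 of 262 YUMMER1.7 cells and 4 UMIs in 4 of 120 YUMM1.7 cells. Its level was 168 CPM (156 to 179) in YUMMER1.7 and 99.9 CPM (90.5 to 110) in YUMM1.7 lymphatic endothelium, and 114 CPM in the 21 naive cells. The log2 ratio was 0.75 (0.57 to 0.92) from summed UMIs and 0.43 as a mean over cells, with intervals of the levels that did not overlap. Fibroblastic cells had 44.9 CPM in YUMMER1.7 and 29.3 CPM in YUMM1.7, a log2 ratio of 0.61 (0.33 to 0.91), which was 0.44 under the stricter cell filter. B cells held 1.52 CPM in YUMMER1.7 and 1.47 CPM in YUMM1.7. The order of Madcam1 over the classes, lymphatic endothelium, then fibroblastic cells, then blood endothelium, held in both tumour libraries without overlap of the intervals.

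Of the selectins, Sele had 125 CPM (114 to 137) in YUMMER1.7 and 176 CPM (155 to 199) in YUMM1.7 blood endothelium, a log2 ratio of -0.49 (-0.71 to -0.27). Lymphatic endothelium had 25.4 CPM in YUMMER1.7 and 23.8 CPM in YUMM1.7, which did not differ beyond counting error. Selp, the selectin stored in granules of endothelial cells and platelets, had 380 CPM in YUMMER1.7 and 311 CPM in YUMM1.7 blood endothelium, a log2 ratio of 0.29 (0.14 to 0.45). The 2 selectins thus lay on opposite sides of 0, both under the fold of 1.5 used for a call. Sele on fibroblastic cells rested on 35 UMIs in 18 YUMMER1.7 cells and 45 UMIs in 8 YUMM1.7 cells. Its log2 ratio was -1.51 (-2.19 to -0.84) from summed UMIs and -0.05 as a mean over cells. Selp had 11 UMIs in YUMMER1.7 and 2 in YUMM1.7 fibroblastic cells, too few for a ratio.

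Vcam1, the ligand of the integrin VLA-4, had 1396 CPM in YUMMER1.7 and 987 CPM in YUMM1.7 lymphatic endothelium, with 1173 CPM in the naive cells. Fibroblastic cells had 820 CPM in YUMMER1.7 and 765 CPM in YUMM1.7, and blood endothelium 86.0 CPM in YUMMER1.7 (76.8 to 96.0) and 118 CPM in YUMM1.7 (101 to 137). The log2 ratios were 0.50 (0.44 to 0.56) in lymphatic endothelium, 0.10 (0.04 to 0.16) in fibroblastic cells and -0.46 (-0.73 to -0.18) in blood endothelium. All 3 stayed under the fold of 1.5. Without the blood endothelial subclusters led by lymphocyte genes or of shallow cells, the last ratio was -0.18. Icam1, the ligand of the integrin LFA-1, had 417 CPM (397 to 439) in YUMMER1.7 and 651 CPM (610 to 693) in YUMM1.7 blood endothelium, a log2 ratio of -0.64 (-0.76 to -0.52), and of -0.57 without the doubtful subclusters. In lymphatic endothelium it had 204 CPM in YUMMER1.7 and 218 CPM in YUMM1.7, with overlapping intervals, and in fibroblastic cells 187 and 169 CPM. Leukocytes carried Icam1 too, with 343 CPM in YUMMER1.7 and 391 CPM in YUMM1.7 migratory dendritic cells.

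Ackr1, which binds inflammatory chemokines without signalling through G proteins, had 259 CPM (243 to 276) in YUMMER1.7 and 313 CPM (285 to 343) in YUMM1.7 blood endothelium, a log2 ratio of -0.28 (-0.44 to -0.11). Lymphatic endothelium had 12.1 CPM in YUMMER1.7 and 8.99 CPM in YUMM1.7, and fibroblastic cells 6.39 and 13.0 CPM, so the order of these classes differed between the libraries. The fibroblastic log2 ratio was -1.02 (-1.56 to -0.48) from 62 YUMMER1.7 and 57 YUMM1.7 UMIs, and -0.47 on thinned cells. Within the fibroblastic cells Ackr1 was highest in subcluster 5, led by Pi16 and Dpp4, with 38.8 CPM in YUMMER1.7 and 71.5 CPM in YUMM1.7. UMIs of Ackr1 were found in 42.1% of YUMMER1.7 and 46.2% of YUMM1.7 cells of that subcluster.

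**Figure D3:**
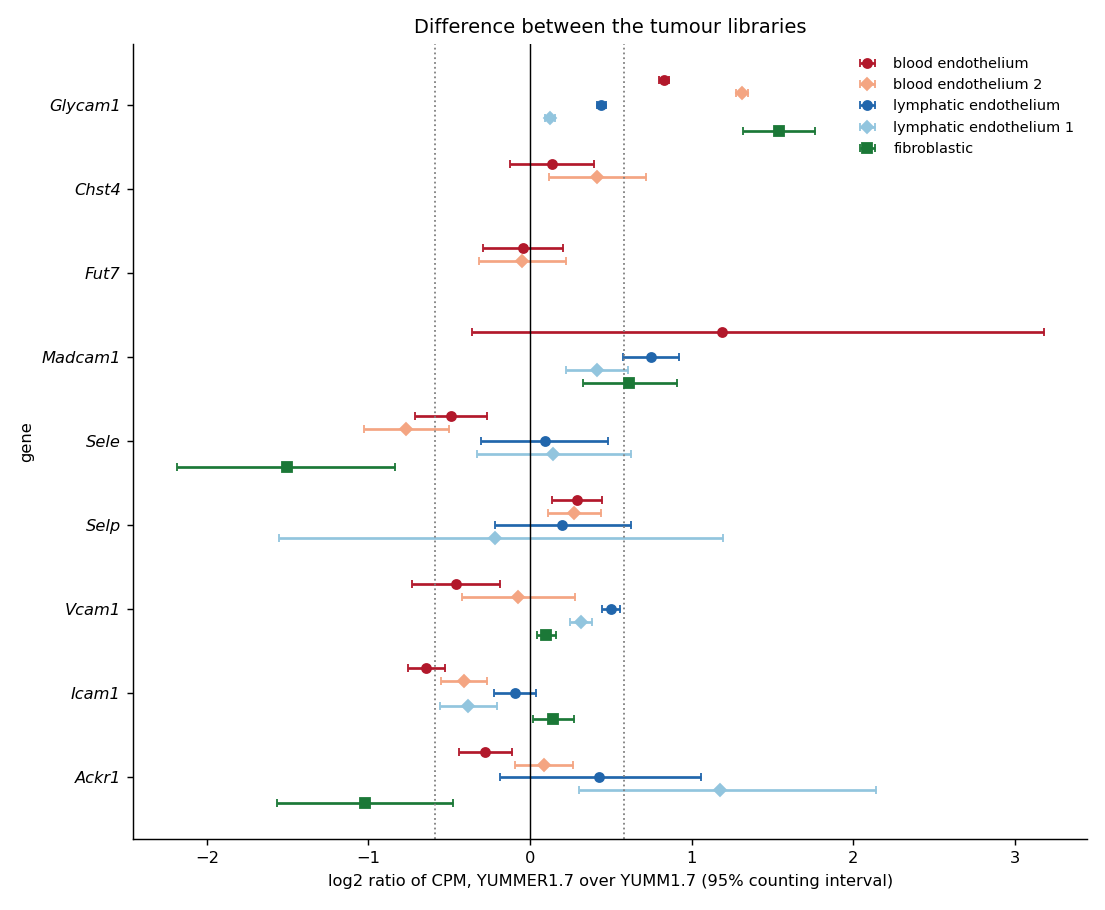
Log2 ratio of YUMMER1.7 over YUMM1.7 for each gene with at least 20 UMIs over both libraries, with bars for the exact 95% interval of counting error, in blood endothelium, its subcluster 2, lymphatic endothelium, its subcluster 1 and fibroblastic cells. The dotted lines mark the fold of 1.5 in each direction. In blood endothelium Glycam1 lies at 0.83 and Icam1 at -0.64, beyond the fold of 1.5, while Chst4 at 0.13 and Fut7 at -0.05 lie near 0.

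A gene was called between the tumours when its fold was at least 1.5 and it had at least 20 UMIs over both libraries. In blood endothelium all 9 members had that many UMIs, and Glycam1 and Madcam1 were called higher in YUMMER1.7, where 8.12% of the 11511 genes with enough UMIs were, while Icam1 was called lower, as were 10.9% of those genes. The Madcam1 call rests on 23 and 4 UMIs, and its interval of -0.36 to 3.18 includes 0. In lymphatic endothelium 7 of the 9 members had enough UMIs, and 1 of them, Madcam1, was called higher against 5.08% of 13082 genes, with 0 called lower against 8.76%. In fibroblastic cells 6 had enough UMIs, with Glycam1 and Madcam1 called higher against 5.68% of 14636 genes and Sele and Ackr1 lower against 12.0%. Members with enough UMIs had a median log2 ratio of -0.05 in blood endothelium, against -0.04 over all genes with enough UMIs. The medians were 0.43 against -0.06 in lymphatic endothelium and 0.12 against -0.07 in fibroblastic cells. At a fold of at least 2, which 2.67% of those genes reached upward and 3.87% downward, the members called in blood endothelium were 1 higher, Madcam1, and 0 lower. In lymphatic endothelium, where 1.57% and 2.77% of genes reached it, 0 members did in either direction, and in fibroblastic cells, where 2.0% and 4.17% did, 1 was higher and 2 were lower.

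Within blood endothelium most UMIs of each member lay in subcluster 2, except that Madcam1 had 2 of its 4 YUMM1.7 UMIs there. Cells of this subcluster were deeper than the class, so they also held more of all UMIs than their number would give. Most UMIs of a gene can therefore lie there without a much higher level, and the share set by depth was not computed. Vcam1 had 133 CPM in YUMMER1.7 and 140 CPM in YUMM1.7 there, against 86.0 and 118 CPM in the whole class. Subcluster 2 was led by Ccl21a, Vwf and Ubd, with 65 YUMMER1.7 and 40 YUMM1.7 cells and a median of 20855 and 15143 UMIs per cell. Chst4 had 227 CPM in YUMMER1.7 and 170 CPM in YUMM1.7 there, found in 80.0% and 60.0% of the cells. In subcluster 1, led by the capillary genes Lpl, Cd36, Car4 and Gpihbp1, Chst4 and Fut7 had 0 UMIs in both libraries. In subcluster 3 Chst4 had 47 UMIs in YUMMER1.7 and 3 in YUMM1.7, and Fut7 had 70 and 0. In the lymphocyte-led subcluster 5 both were lower in YUMMER1.7, with 4 Chst4 UMIs against 24 and 1 Fut7 UMI against 9. The intervals of both ratios included 0 in subclusters 4 and 6. Ackr1 had 527 CPM in YUMMER1.7 and 497 CPM in YUMM1.7 in subcluster 2, against 4.70 and 0 CPM in subcluster 1. Selp was at 674 CPM in YUMMER1.7 and 557 CPM in YUMM1.7, and Sele at 174 and 297 CPM. Outside subcluster 2 Sele was higher in YUMMER1.7 in subcluster 3, with 100 CPM against 21.3 CPM in YUMM1.7, in the mitotic subcluster 4, with 125 CPM against 33.4 CPM, and in subcluster 1, with 22 UMIs against 0, and lower in the lymphocyte-led subcluster 5, with 35.1 CPM against 166 CPM. The levels of Fut7 in subcluster 2 were 222 CPM in YUMMER1.7 and 229 CPM in YUMM1.7. These cells carried the enzymes, the selectins and Ackr1 together, but 13 Madcam1 UMIs in YUMMER1.7, 9 of them in 1 cell, and 2 in YUMM1.7.

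**Figure D4:**
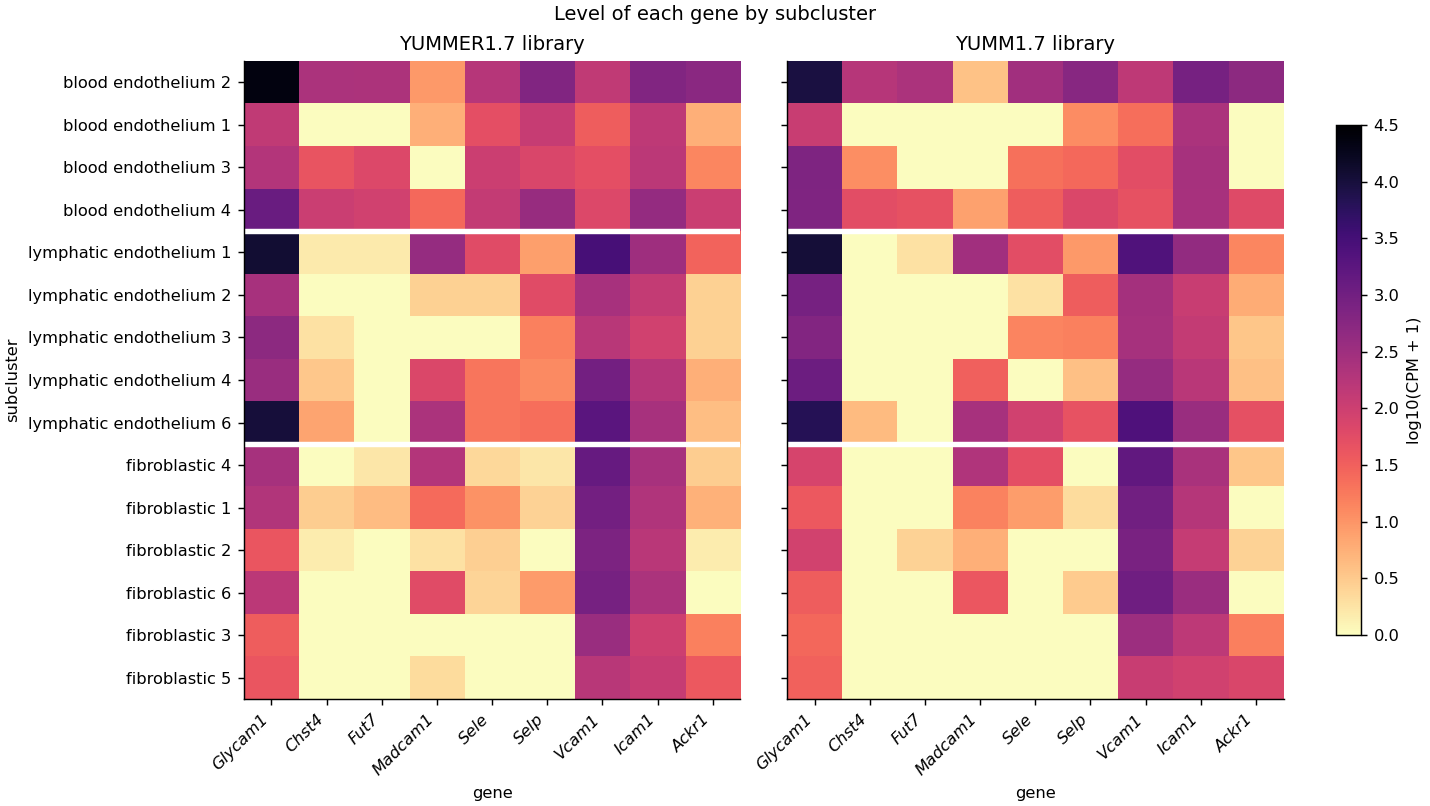
Level of each gene in the subclusters of blood endothelium, lymphatic endothelium and fibroblastic cells, on a colour scale of log10(CPM + 1), with YUMMER1.7 left of YUMM1.7 and the subclusters led by lymphocyte, contractile or mitotic fibroblastic genes or of shallow cells left out. Chst4 reaches 227 CPM in YUMMER1.7 and 170 CPM in YUMM1.7 cells of blood endothelial subcluster 2, and Madcam1 388 and 292 CPM in lymphatic endothelial subcluster 1.

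Glycam1 in blood endothelial subcluster 2 had 23334 CPM in YUMMER1.7 and 9377 CPM in YUMM1.7, a log2 ratio of 1.32 (1.28 to 1.35). Per cell the lowest level was 0 in both libraries, the median 5563 CPM in YUMMER1.7 and 1531 CPM in YUMM1.7, and the highest 160650 and 94185 CPM. The ranges overlapped, and 87.7% of YUMMER1.7 and 90.0% of YUMM1.7 cells had a UMI. Above 1000 CPM lay 67.7% of YUMMER1.7 and 67.5% of YUMM1.7 cells, and above 10000 CPM 43.1% and 27.5%. Whether the share of high cells or the level per cell differed was not tested. The cell with most UMIs held 18.2% of the YUMMER1.7 and 21.9% of the YUMM1.7 UMIs, and the log2 ratio without these cells was 1.39. On thinned cells it was 1.14 and as a mean over cells 1.08. In subcluster 3, led by Itm2a, Igfbp3 and Esm1, Glycam1 had 188 CPM in YUMMER1.7 and 726 CPM in YUMM1.7, where 1 cell held 79.5% of the UMIs. The shallow subcluster 6 had 47855 CPM in YUMMER1.7 and 47365 CPM in YUMM1.7, of which 1 cell held 74.7% and 88.9%.

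The other members of subcluster 2 with at least 20 UMIs had smaller ratios than Glycam1. Chst4 had a log2 ratio of 0.41 (0.12 to 0.72), Fut7 of -0.05 (-0.32 to 0.23), Selp of 0.27 (0.11 to 0.44), Vcam1 of -0.07 (-0.42 to 0.28) and Ackr1 of 0.09 (-0.09 to 0.27). Sele was lower in YUMMER1.7, at -0.76 (-1.02 to -0.50), and Icam1 at -0.41 (-0.55 to -0.27) with 668 CPM in YUMMER1.7 and 887 CPM in YUMM1.7. Of the 8 members with enough UMIs, Glycam1 was called higher against 8.92% of 9006 genes and Sele lower against 15%. Icam1 was also lower in YUMMER1.7 in subcluster 3, with 156 CPM against 255 CPM in YUMM1.7, and had 139 CPM against 232 CPM in subcluster 1, with an interval of -1.48 to 0.05. It was higher in subcluster 4, with 413 CPM in YUMMER1.7 against 247 CPM in YUMM1.7 (0.19 to 1.31), and had 641 CPM against 318 CPM in subcluster 6 (-0.07 to 2.25). T cell markers in subcluster 2 summed to 3.65 CPM in YUMMER1.7 and 16.5 CPM in YUMM1.7, with Cd3d and Cd5 at 0 in both, and B cell markers to 750 and 984 CPM. The part of lymphocyte RNA in these ratios was not tested.

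Cell by cell, Glycam1 above the B cell limit went with the enzymes in blood endothelium and not in lymphatic endothelium. Of the blood endothelial cells above the limit, 83.9% in YUMMER1.7 and 71.4% in YUMM1.7 had a Chst4 UMI, against 8.74% and 7.69% of the other cells in the same order. For Fut7 the shares were 83.9% in YUMMER1.7 and 69.0% in YUMM1.7, against 12.6% and 7.69% of the others. Ackr1 was found in 89.3% of the YUMMER1.7 and 76.2% of the YUMM1.7 cells above the limit. These cells were deeper, with a median of 22487 UMIs in YUMMER1.7 and 18296 in YUMM1.7, against 5054 and 4669 in the others, and depth raises every share. Of the lymphatic endothelial cells above the limit, 3.57% in YUMMER1.7 and 1.25% in YUMM1.7 had a Chst4 UMI at a median depth of 22814 and 17806 UMIs. In them Madcam1 was found in 70.2% of YUMMER1.7 and 65.0% of YUMM1.7 cells, against 9.70% and 2.96% of the other lymphatic endothelial cells.

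**Figure D5:**
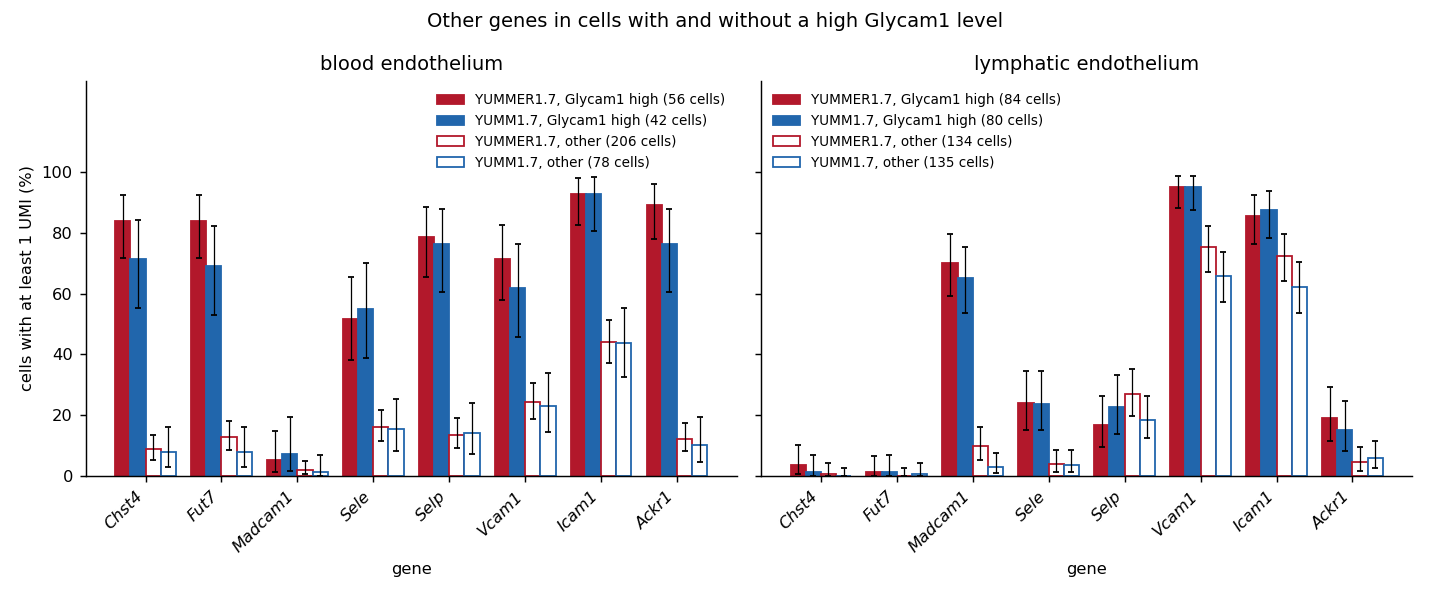
Share of cells with at least 1 UMI of each gene, in percent with exact 95% binomial intervals, for cells with Glycam1 above 10 times the B cell level and for the other cells of blood and lymphatic endothelium, YUMMER1.7 beside YUMM1.7. Chst4 is found in 83.9% and 71.4% of the YUMMER1.7 and YUMM1.7 blood endothelial cells above the limit, but in 3.57% and 1.25% of the lymphatic ones.

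In lymphatic endothelium most UMIs of Glycam1, Madcam1, Vcam1 and Sele lay in subcluster 1, led by Ubd, Cxcl9, Ptgs2 and Ccl20, with 68 YUMMER1.7, 57 YUMM1.7 and 12 naive cells. Glycam1 had 11880 CPM in YUMMER1.7, 10907 CPM in YUMM1.7 and 5178 CPM in the naive cells, and 100% of YUMMER1.7 and 98.2% of YUMM1.7 cells had a UMI. The log2 ratio was 0.12 (0.09 to 0.16), and -0.03 without the top cell of each library, so its sign rests on 1 cell in each library. The per cell median was 7214 CPM in YUMMER1.7 and 6945 CPM in YUMM1.7. Madcam1 had 388 CPM in YUMMER1.7, 292 CPM in YUMM1.7 and 223 CPM in the naive cells, a tumour log2 ratio of 0.41 (0.22 to 0.61). Vcam1 had 2908 CPM in YUMMER1.7 and 2333 CPM in YUMM1.7, a log2 ratio of 0.32 (0.25 to 0.39), and Icam1 322 and 419 CPM, a log2 ratio of -0.38 (-0.56 to -0.20).

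Chst4 in this subcluster had 1 UMI in YUMMER1.7 and 0 in YUMM1.7, and Fut7 1 in each. Of the 7 members with enough UMIs, Ackr1 was called higher against 7.22% of 10061 genes and 0 were called lower against 13.5%. The Ackr1 ratio of 1.18 (0.31 to 2.14) rested on 53 YUMMER1.7 and 14 YUMM1.7 UMIs, of which 1 cell held 41.5% and 42.9%, and it was -0.21 on thinned cells and -0.05 as a mean over cells. Outside subcluster 1, Madcam1 was at 1.74 CPM in YUMMER1.7 and 0 CPM in YUMM1.7 cells of subcluster 2, led by Timp4 and Stab2. In subcluster 3, led by Igfbp5 and Nts, Madcam1 had 0 UMIs in both libraries. Vcam1 was at 250 CPM in YUMMER1.7 and 275 CPM in YUMM1.7 cells of subcluster 2, and differed in sign between subcluster 3, with 165 and 261 CPM, and subcluster 4, with 963 and 386 CPM. Selp had 57.4 CPM in YUMMER1.7 and 34.0 CPM in YUMM1.7 cells of subcluster 2, against 6.98 and 8.10 CPM in subcluster 1. Beside subcluster 1, Madcam1 was found in subcluster 4, led by Marco and Lyve1, with 68.8 CPM in YUMMER1.7 and 31.4 CPM in YUMM1.7, in the lymphocyte-led subcluster 5, with 164 and 5.50 CPM, and in the mitotic subcluster 6, with 227 and 254 CPM.

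Among fibroblastic cells Madcam1 was highest in subcluster 4, led by Hamp and Cr2, with 189 CPM in YUMMER1.7 and 202 CPM in YUMM1.7. It was found in 64.3% of the YUMMER1.7 and 64.0% of the YUMM1.7 cells there. Vcam1 had 1318 CPM in YUMMER1.7 and 1486 CPM in YUMM1.7 in that subcluster, and 961 and 976 CPM in subcluster 1, led by Tnfsf11 and Ch25h. In the Pi16 and Dpp4 subcluster Vcam1 had 165 CPM in YUMMER1.7 and 112 CPM in YUMM1.7. Madcam1 did not stand higher in YUMMER1.7 within subcluster 4, which made up 56 of 430 YUMMER1.7 and 25 of 274 YUMM1.7 fibroblastic cells. A class ratio in a mixed population cannot tell a different share of such cells from a different RNA level per cell.

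Beside the members, 11 lists of genes of the same pathway were counted in the same way. Of 8 tested genes for the glycosylation of peripheral node addressin besides Chst4 and Fut7, 0 were higher and 1 was lower in YUMMER1.7 blood endothelium, near the 8.12% and 10.9% of all genes. That gene was Gcnt1, the core 2 branching enzyme, with 70.4 CPM in YUMMER1.7 and 124 CPM in YUMM1.7. In subcluster 2 of blood endothelium 0 were higher and 2 lower, B4galt1 and St3gal3, where 8.92% and 15% of all genes were, while the second sulfotransferase Chst2 had 188 CPM in YUMMER1.7 and 216 CPM in YUMM1.7. Among 4 tested carriers of the sugars besides Glycam1, 1 was higher in YUMMER1.7 blood endothelium, Podxl, with 214 CPM in YUMMER1.7 and 135 CPM in YUMM1.7, while Cd34 had 558 and 482 CPM. Of 12 genes of the venular and high endothelial state, 0 were called in either direction in blood endothelium, and 2 were higher in subcluster 2, Lrg1 and Sphk1. Of the junction genes 0 of 7 and of the other integrin ligands 0 of 3 were called in blood endothelium.

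In subcluster 2 of blood endothelium 11 of 14 tested genes of the type I interferon response, which viral RNA and other danger signals induce, were higher in YUMMER1.7 and 0 lower, where 8.92% and 15% of all genes were, with a median log2 ratio of 1.03 against -0.07 over all genes with enough UMIs. Isg15, a ubiquitin-like modifier, had 158 CPM in YUMMER1.7 and 61.8 CPM in YUMM1.7, and Irf7 had 72.3 and 26.1 CPM. In lymphatic subcluster 1, 11 of 15 were higher and 0 lower, where 7.22% and 13.5% of all genes were, with a median of 0.77, and Isg15 had 672 CPM in YUMMER1.7 and 344 CPM in YUMM1.7. In fibroblastic cells 1 was higher and 3 were lower of 15, where 5.68% and 12.0% of all genes were. Of 7 tested chemokine genes in lymphatic subcluster 1, 6 were higher in YUMMER1.7 and 1 was lower, where 7.22% and 13.5% of all genes were. Of 6 tested chemokine genes in blood endothelial subcluster 2, 4 were higher in YUMMER1.7: Ccl21a, the ligand of CCR7, with 7684 CPM in YUMMER1.7 and 4448 CPM in YUMM1.7, Cxcl9 with 128 and 16.5 CPM, Cxcl10 with 151 and 98.8 CPM, and Cxcl13 with 42.0 and 23.3 CPM. Of the endothelial NF-kB targets, 0 were higher and 2 lower of 13 in that subcluster, near the shares of all genes there, Birc3 with 258 CPM in YUMMER1.7 and 478 CPM in YUMM1.7 and Csf1. The early-response list, which tissue dissociation also moves, had 3 higher and 0 lower of 12 there, and its part in the ratios was not tested.

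The remaining lists were read beside the lymphocyte markers. Of the lymphocyte counter-receptors, 1 was higher and 4 lower of 7 tested in YUMMER1.7 blood endothelium, 0 and 4 of 7 in lymphatic endothelium and 0 and 4 of 8 in fibroblastic cells. Of all genes, 10.9%, 8.76% and 12.0% were lower in these classes in the same order. Summed T cell markers in blood endothelium were 26.4 CPM in YUMMER1.7 and 63.2 CPM in YUMM1.7, and B cell markers 1037 and 1201 CPM. In lymphatic endothelium B cell markers summed to 159 CPM in YUMMER1.7 and 294 CPM in YUMM1.7, and in fibroblastic cells to 1074 and 1586 CPM. Summed B cell markers were thus lower in all 3 YUMMER1.7 classes, and their part in the ratios of the members was not tested.

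Likeness of pattern was described by Pearson's r of log2(CPM + 10) over 48 points, the 24 clusters with enough cells in both tumour libraries, which share libraries and depth. Blood endothelium was 1 of these clusters, so a gene found mainly in it reaches a high r whatever its pattern within the class. Likeness among its subclusters was not measured. Of 14399 genes, those most like Chst4 were Aplnr, Sox17 and Gm33206, at 0.996, 0.995 and 0.993. Those most like Madcam1 were Coch at 0.97, Erc2 at 0.96 and Serpina12 at 0.95. Glycam1 was most like Pcdh17 at 0.93, Ubd at 0.92 and Upp1 at 0.92. Pcdh17 was also among the genes most like Sele, at 0.96, after Ptchd4 at 0.98 and Kcnj15 at 0.96. For Ackr1 they were Flt1 at 0.94, Ankrd2 and Ttll7 at 0.93, and for Selp Tmem88 at 0.93. Vcam1 was most like Cfb at 0.96, Icam1 most like Zbtb46 and Fam131a at 0.89, and Fut7, which T cells also carried, reached at most 0.77 with Dach1 and Cysltr1.

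The genes lie at separate places of mm10, and some share their place with another gene. Glycam1 spans chr15:103562759-103565081, Chst4 chr8:110029153-110039740, Fut7 chr2:25423267-25426374 and Madcam1 chr10:79664559-79668537, with no overlapping gene in the annotation. Sele spans chr1:164048234-164057677 and Selp, its neighbour, chr1:164115264-164150026, where Gm16587 and Gm16548 are annotated antisense. Vcam1 at chr3:116109949-116129688 overlaps the antisense Gm43109, and Icam1 at chr9:21015985-21028817 the antisense Gm47079. Ackr1 at chr1:173331886-173333750 overlaps Cadm3 on the same strand, so the UMIs of Ackr1 are less certain in assignment. For Selp, Vcam1 and Icam1, whose overlaps are antisense, the assignment depends on the strand settings, which were not given in the sources used here.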

How the data were processed

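Single-cell 3′ libraries (Chromium GEM-X 3′ v4, about 10000 cells loaded) of collagenase-digested lymph nodes were used. The deposited files hold raw UMI counts per gene and barcode, which the authors made with mm10 and, per the submitters' processing notes, Cell Ranger 8.0.1, while the headers of the CD45-depleted matrices name 7.0.0, per the file headers. For strand use and cell calling, the settings were not given in the sources used here. There were 6 libraries in 2 fractions, with 1 library per group and fraction. The 3 CD45-depleted ones were analysed, and the CD11b/CD11c-enriched fraction only as totals.

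Cells needed 500 UMIs, 300 genes and at most 10% mitochondrial UMIs. Scrublet's own threshold marked 0% of cells, and cells with scores over the 95th percentile were taken out instead, 4.37% to 4.96% per library. The 3 libraries were clustered together with scanpy 1.11.5 (10000-UMI scaling, 2000 variable genes without the 9 members, 30 components, 15 neighbours, Leiden resolution 1 with igraph 0.11.9, and 0.5 within classes). A cluster was named from at least 3 listed markers found in 10% of its cells with a log2 fold over 0.5. A cluster much shallower than its sample (under 1 part in 3 of its median UMI count) needed 2 markers among its top 10 genes. With 1 library per group no test was possible. Summed UMIs gave CPM with exact 95% Poisson intervals, ratios with exact conditional binomial intervals, and shares with Clopper-Pearson intervals (scipy 1.17.1, Python 3.11.15). All cover counting error only. A count of 0 allows 3 counts. A call was a fold of at least 1.5 with at least 20 UMIs over both tumour libraries, and the calculation of ratios and intervals was checked on simulated counts. For shares across depths, cells were thinned to 2000 UMIs and shallower cells left out. All 9 members are named. From each list at most the 4 genes with most blood endothelial UMIs and those called may be named, and like genes are the 3 with the highest correlation, among genes with 50 UMIs, over clusters of at least 30 cells in both libraries.

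The members and lists were chosen with earlier results of these data known. The naming rule, the rule for shallow clusters, the limit of 10 times the B cell level and 2 alternatives were chosen after seeing the data. Alternatives were a stricter filter, no doublet removal, other resolutions, members in the clustering, separate clustering, 2 other scalings, subtraction of the B cell level, thinning, means over cells, other thresholds, single blood endothelial subclusters, and leaving out doubtful subclusters or the top cell. The values of 1 gene of the lists are not reported here.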

Additional observations from a re-analysis of the deposited data

Results flagged for a closer look

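From summed UMIs, Vcam1 differed in direction between classes. Its log2 ratio of YUMMER1.7 over YUMM1.7 was -0.46 in blood endothelium, against 0.50 in lymphatic endothelium and 0.10 in fibroblastic cells. Within blood endothelium Vcam1 had -0.07 (-0.42 to 0.28) in subcluster 2, -0.06 (-0.90 to 0.87) in subcluster 3 and 0.45 (-0.87 to 1.96) in subcluster 4. In the lymphocyte-led subcluster 5 it had -2.25 (-3.40 to -1.25), from 10 YUMMER1.7 and 46 YUMM1.7 UMIs. Icam1 from summed UMIs had -0.64 in blood endothelium, against 0.14 in fibroblastic cells. With 1 library per tumour these differences between classes were not tested.

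In the CD11b/CD11c-enriched fraction, whose cells were not analysed above, 4 members had a level, in UMIs per 1000000 UMIs of the library, whose 95% counting interval lay above that of the naive library in both tumour libraries. How many of all genes passed the same rule was not counted, so the number of members cannot be set against a background. Glycam1 had 28.8 in YUMMER1.7, 5.68 in YUMM1.7 and 1.85 in naive nodes. Fut7 had 3.30, 4.57 and 2.01 in the same order, and Madcam1 0.777, 0.460 and 0.150. Vcam1 had 129.8 in YUMMER1.7, 118.7 in YUMM1.7 and 105.0 in naive nodes. The libraries differ in their cells, and which cells held these UMIs was not tested.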

How the results depend on the processing

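No paired analysis was possible because each group was 1 library, and for the same reason no replicate could be left out. Single subclusters were recomputed for blood endothelium only, and those of the other classes are given above without a count. Of 410 recomputed ratios of members, 315 moved by less than the counting interval, 371 kept their sign and 6 that had been called reversed. These were Glycam1 within blood endothelial subclusters 3 (-1.95) and 5 (-1.72), Icam1 within subclusters 4 (0.74) and 6 (1.01), and Ackr1 in lymphatic subcluster 1 on thinned cells (-0.21) and as a mean over cells (-0.049); the cause was not tested. In fibroblastic cells 77 of 77 kept their sign over the alternatives that use the whole class. This count leaves out Glycam1 with the B cell level subtracted, which had no ratio. Its YUMM1.7 fibroblastic level of 44.4 CPM lay below the 85.3 CPM of YUMM1.7 B cells.

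The 2 members called higher in YUMMER1.7 blood endothelium became 1 without doublet removal, on thinned cells, as means over cells and at a fold of at least 2. The 1 called lower became 0 with median ratio scaling, at a fold of at least 2 and, in an alternative added after seeing the data, without doubtful subclusters, 2 with the B cell level subtracted, and 3 on thinned cells and as means over cells. In lymphatic endothelium the 1 called higher became 2 without doublet removal, on thinned cells and with no low-value filter, and 0 at a fold of at least 2, and the 0 called lower became 1 with no low-value filter. In fibroblastic cells the 2 called higher became 1 with the stricter filter, with the B cell level subtracted, at a fold of at least 2 and, both added after seeing the data, without the top cell or the doubtful subclusters, and 4 with no low-value filter. The 2 called lower became 1 on thinned cells and 0 as means over cells. Glycam1 in blood endothelium ranged down to 0.41 on thinned cells. Depth limits Madcam1 in blood endothelium, Sele and Ackr1 in fibroblastic cells, and all naive vessel values.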
